A study of Mus musculus with 29 samples.

Results

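The binding sites of BHLHB8-HA in mouse fibroblasts comprised 108833 peaks in a pair of lists, of 304922 peaks in the 28 lists of the series. Every peak of each replicate was sorted by whether any peak of the other replicate overlapped it, by 1 bp or more. Of the 46842 peaks of replicate 1, 24969 were found in both replicates and 21873 in replicate 1 only. Of the 61991 peaks of replicate 2, 24283 were found in both and 37708 in replicate 2 only. The shared class has different sizes in the lists because a wide peak of one can cover several peaks of the other.

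BHLHB8, also called MIST1 or BHLHA15, is a basic helix-loop-helix transcription factor. Such factors bind DNA as dimers at E-boxes, the hexamers of the form CANNTG, and each factor prefers certain middle bases. MIST1 is known from cells that secrete protein in bulk, such as the acinar cells of the pancreas and the chief cells of the stomach, where it acts on genes of the secretory machinery. A fibroblast is not a cell of this kind.

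The series mapped 24 HA-tagged constructs by chromatin immunoprecipitation and sequencing (ChIP-seq), to compare how many genomic sites each transcription factor occupies. Both BHLHB8-HA samples were NIH-3T3 cells, a line of mouse embryonic fibroblasts, that carried the reverse tetracycline transactivator rtTA3G and an inducible BHLHB8 transgene with HA tags, brought in by lentivirus. They received 500 ng/ml doxycycline overnight, were fixed in 1% formaldehyde and were precipitated with an anti-HA antibody, as were the 26 lists of the 23 other constructs that serve for comparison here. Those lists come from other factors, from the FOXA1 mutants RR and SW, made to bind DNA less outside their motif, and from OCT4-HA expressed together with SOX2-YPet. The tag and not the endogenous protein was precipitated, the level of the transgene was not measured in these files, and peak lists hold no expression values against which the cell line could be checked. Each file gives the chromosome, start and end of its peaks and neither a score nor a read number, and sequencing depth is therefore unknown.

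The replicates differed in ways that touch the sorting. The narrowest peak was 143 bp in replicate 1 and 230 bp in replicate 2, and 42.9% of the peaks found only in replicate 1 were narrower than any peak of replicate 2. The first part of chromosome 5, from 3 to 11 Mb, held 361 peaks of replicate 1 and 1144 of replicate 2. The list labelled DLX1-HA, a homeodomain factor, resembled BHLHB8-HA in its E-boxes, and the comparison over lists is given with and without it.

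The windows that follow show what peaks of each class look like in sequence. Each comes from a peak in or within 10 kb of the named gene, is centred on the CAGCTG nearest the peak midpoint, and lies outside annotated exons. The window at Copz2 ends early, where its peak ends. Each is written 5′ to 3′ on the plus strand of GRCm38 (mm10), with CAGCTG, an E-box that reads the same on both strands, in capitals. The first 6 are from peaks found in both replicates, at genes linked to MIST1 in secretory cells and at Id1, whose protein binds and blocks helix-loop-helix partners.
Rap1gap, both replicates, intron, 261 bp from the nearest start of Rap1gap, chr4:137707211-137707310: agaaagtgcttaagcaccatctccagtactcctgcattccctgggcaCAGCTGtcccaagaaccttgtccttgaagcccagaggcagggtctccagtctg
Rab3d, both replicates, outside Rab3d in an intron of another gene model, 6024 bp from the nearest start of Rab3d, chr9:21924166-21924265: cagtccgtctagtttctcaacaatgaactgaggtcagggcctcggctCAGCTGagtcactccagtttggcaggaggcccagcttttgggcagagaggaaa
Creb3l1, both replicates, intron, 7325 bp from the nearest start of Creb3l1, chr2:92017127-92017226: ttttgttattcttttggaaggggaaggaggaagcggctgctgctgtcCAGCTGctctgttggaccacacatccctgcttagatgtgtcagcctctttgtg
Creb3l2, both replicates, intron, 50666 bp from the nearest start of Creb3l2, chr6:37391430-37391529: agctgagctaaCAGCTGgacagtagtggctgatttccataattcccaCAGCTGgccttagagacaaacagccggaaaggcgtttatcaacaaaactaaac
Copz2, both replicates, intron, 10823 bp from the nearest start of Copz2, chr11:96860649-96860739: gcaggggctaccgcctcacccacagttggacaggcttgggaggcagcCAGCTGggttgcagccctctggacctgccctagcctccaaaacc
Id1, both replicates, between genes, 866 bp from the nearest start of Id1, chr2:152735335-152735434: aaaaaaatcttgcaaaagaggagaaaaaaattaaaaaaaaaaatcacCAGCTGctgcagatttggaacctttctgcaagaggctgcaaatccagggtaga

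The next pair comes from peaks found only in replicate 1 and the last pair from peaks found only in replicate 2. All 10 windows were picked for holding CAGCTG near the midpoint, so they serve as examples of its setting, and the share of peaks that hold it is given over all peaks of each class.
Creb3l2, replicate 1 only, intron, 87032 bp from the nearest start of Creb3l2, chr6:37355064-37355163: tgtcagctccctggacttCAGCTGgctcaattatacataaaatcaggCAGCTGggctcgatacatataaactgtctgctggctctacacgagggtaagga
Xbp1, replicate 1 only, between genes, 291 bp from the nearest start of Xbp1, chr11:5520318-5520417: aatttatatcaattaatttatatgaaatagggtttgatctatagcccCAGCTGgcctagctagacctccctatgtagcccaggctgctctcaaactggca
Nr5a2, replicate 2 only, intron, 21910 bp from the nearest start of Nr5a2, chr1:136927213-136927312: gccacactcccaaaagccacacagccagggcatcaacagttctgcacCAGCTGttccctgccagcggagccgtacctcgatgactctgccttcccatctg
Creb3l2, replicate 2 only, intron, 94144 bp from the nearest start of Creb3l2, chr6:37347952-37348051: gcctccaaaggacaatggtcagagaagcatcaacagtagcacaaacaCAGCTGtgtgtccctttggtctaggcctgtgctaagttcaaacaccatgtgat

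The first comparison is between the replicates. The share of peaks found in the other list was 53.3% in replicate 1 (exact binomial 95% interval 52.9 to 53.8) and 39.2% in replicate 2 (38.8 to 39.6). These intervals, like the others on shares, treat peaks as counts and leave out any error that arises between libraries. Most overlaps joined a single peak of each list, in 22935 pairs. The midpoints of a pair were a median of 73 bp apart, and 37.5% of pairs lay within 50 bp. The replicate 2 peak was the wider in 58.5% of pairs, with a median width ratio of 1.10. When each peak had to cover at least 50% of the other, the shared share fell to 35.3% in replicate 1 and 26.7% in replicate 2.

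Shared peaks were wider than peaks of a single replicate. The median width was 416 bp for shared and 250 bp for replicate-only peaks in replicate 1, and 478 bp and 318 bp in replicate 2. The classes were sorted by overlap, on which width bears, and the part of the sorting in this difference was not tested. Among peaks of at least 300 bp in both lists, 59.6% of replicate 1 peaks and 36.5% of replicate 2 peaks were found in the other. The shared peaks covered 0.441% of the known genome in replicate 1 and 0.502% in replicate 2.

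The classes lay in different places relative to genes. At promoters, taken as positions up to 1 kb from where a protein-coding transcript starts, were 25.6% of shared peaks in replicate 1 (25.1 to 26.2) and 24.8% in replicate 2 (24.3 to 25.4). Of the peaks found only in replicate 1, 7.73% were at promoters (7.38 to 8.09), and of those found only in replicate 2, 11.4% (11.1 to 11.7). Such positions make up 2.44% of the known genome. Shared peaks were thus at promoters more often than replicate-only peaks in both lists, by 17.9 percentage points in replicate 1 and 13.4 in replicate 2. With a reciprocal overlap of 50% in place of 1 bp the differences were 6.74 and 6.85 points.

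Introns held 37.2% of shared and 46.5% of replicate-only peaks in replicate 1, and 37.3% and 40.9% in replicate 2. The median distance to the nearest protein-coding start was 13.3 kb and 14.0 kb for shared peaks, 28.8 kb for replicate 1 only and 24.8 kb for replicate 2 only. More than 100 kb away were 11.3% and 11.5% of shared peaks, 22.7% of replicate 1 only and 19.5% of replicate 2 only.

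Coding exons set the peaks found only in replicate 2 apart. They held 1696 peaks found only in replicate 2, or 4.50% of that class (4.29 to 4.71), against 154 peaks or 0.704% of the class found only in replicate 1 (0.598 to 0.824). Of the shared peaks, 1.36% in replicate 1 and 1.45% in replicate 2 were there, and coding exons make up 1.12% of the known genome outside promoters. CAGCTG was present in 45.3% of the central windows of the coding-exon peaks found only in replicate 2 and in 44.8% of those found only in replicate 1.

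The E-box content of the classes was compared in the central 200 bp of each peak, beside equally wide control windows, centred 5 kb further along the chromosome and free of peaks from all lists. Of the 10 E-boxes counted, CAGCTG had the most excess over controls in each class. In replicate 1 it was present in 41.7% of shared windows (41.1 to 42.3; controls 8.77%) and 33.3% of replicate-only windows (32.7 to 34.0; controls 7.98%). In replicate 2 the shares were 37.7% of shared windows (37.1 to 38.3; controls 8.90%) and 33.4% of replicate-only windows (32.9 to 33.9; controls 8.02%). The classes found in a single replicate thus carried this E-box about 4 times as often as their controls, with folds of 4.18 and 4.16.

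Windows with 2 or more CAGCTG made up 9.26% of shared and 5.49% of replicate-only windows in replicate 1, and 7.96% and 5.81% in replicate 2. Their controls had 0.483% to 0.554% of such windows. Shared peaks had the higher share of CAGCTG in each of 4 width classes of both lists. In replicate 1 the shares among peaks under 250 bp were 45.1% for shared and 35.1% for replicate-only peaks, and among peaks of 600 bp and over 29.6% and 20.2%.

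The other E-boxes differed among the classes too. CAGATG was present in 30.3% of shared and 34.1% of replicate-only windows of replicate 1, and in 27.6% and 26.0% of those of replicate 2, with controls of 15.1% to 15.6%. CATATG was present in 8.92% and 15.5% in replicate 1 and in 6.97% and 10.1% in replicate 2, with controls of 4.90% to 5.65%. In both lists CATATG was thus more frequent in the peaks of a single replicate than in shared peaks. CACCTG, a sequence that E-proteins and Snail-type zinc fingers also bind, was present in 21.1% of the windows found only in replicate 2 (controls 13.8%) and in 8.69% of those found only in replicate 1 (controls 13.3%). CACGTG, the E-box of MAX and its partners, was present in 2.53% to 3.73% of windows, with controls of 2.25% to 2.62%.

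**Figure D1:**
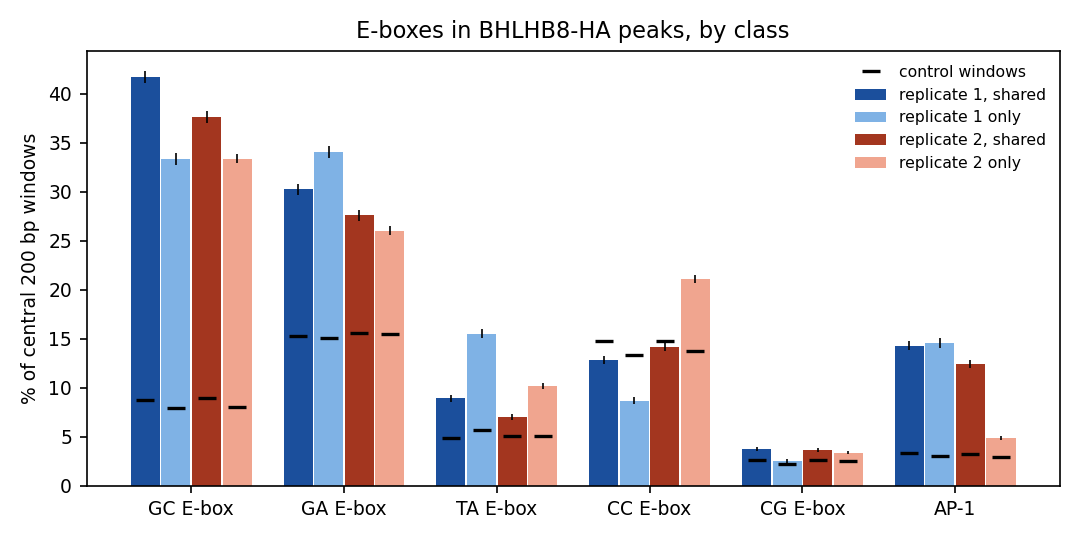
Share of central 200 bp windows, in percent, that hold each E-box, named by its middle bases, or the AP-1 sequence, for the 4 classes of BHLHB8-HA peaks; error bars are exact 95% intervals and black dashes are control windows. The GC E-box reached 41.7% in shared peaks of replicate 1 and 33.4% in peaks found only in replicate 2 beside controls of 7.98% to 8.90%, and the classes differ in the CC E-box and in AP-1.

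The base next to CAGCTG was compared in the same windows. The base after the hexamer, read on both strands, was A in 8.58% and 10.8% of cases in shared and replicate-only windows of replicate 1, and in 9.48% and 10.9% of those of replicate 2. In control windows it was A in 22.3% to 23.5%. A was thus rarer after the hexamer than in controls in every class, and slightly less rare in peaks of a single replicate than in shared peaks.

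CAGCTG was concentrated at the midpoint. Within 40 bp of it there were 3.37 and 2.71 occurrences per kb in shared and replicate-only peaks of replicate 1, and 2.86 and 2.22 in replicate 2. At 400 to 500 bp from it there were 0.425 to 0.535 per kb in the 4 classes. The ratio of centre to flank was 6.31 and 6.38 in replicate 1 and 5.65 and 4.84 in replicate 2. Of the 1032981 occurrences of CAGCTG in the known genome, 3.27% lay in peaks of replicate 1, 4.91% in peaks of replicate 2 and 2.25% in shared peaks of replicate 1.

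**Figure D2:**
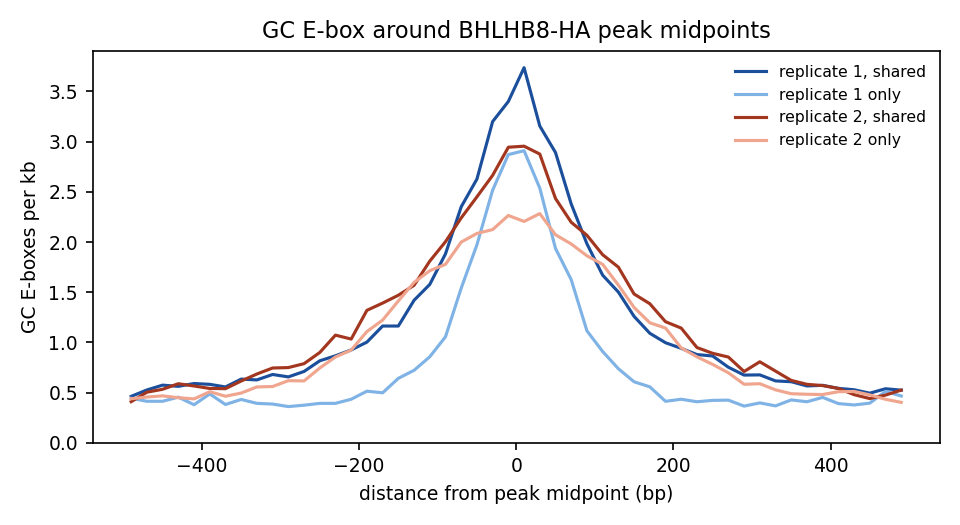
Occurrences of the GC E-box per kb against the distance from the peak midpoint in bp, in steps of 20 bp, for the 4 classes of BHLHB8-HA peaks. All 4 lines are highest near the midpoint, up to 3.74 per kb in shared peaks of replicate 1, and fall to between 0.425 and 0.535 per kb at 400 to 500 bp.

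Promoter peaks held CAGCTG less often than the others. In replicate 1, CAGCTG was present in 34.2% of shared promoter windows and 44.3% of shared windows outside promoters, and in replicate 2 in 27.6% and 41.0%. For the peaks of a single replicate the shares at promoters were 24.6% and 21.9%. At promoters CATATG was at 3.77% and 2.50% of shared windows, beside 4.56% and 4.65% of their controls.

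Base composition and repeats also differed between the classes. The median GC content of the central windows was 52.5% for shared peaks and 45% for replicate-only peaks in replicate 1, and 53% and 52.5% in replicate 2, with controls of 43.5% to 45.5%. Repeat-masked bases made up 9.79% of shared and 14.9% of replicate-only windows in replicate 1, and 9.85% and 17.3% in replicate 2. They made up 28.8% to 31.2% of control windows and 36.4% of the genome. Of the windows found only in replicate 2, 12.8% were mostly masked (controls 24.9%), against 7.28% of those found only in replicate 1 (controls 23.6%).

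Whether this E-box preference set BHLHB8-HA apart was tested over the 21 lists of at least 500 peaks, with the list as the unit. Duplicate lists of the same construct counted separately, the BHLHB8-HA pair among them. The p-values are therefore over lists and not over independent constructs. The excess of CAGCTG over controls was 29.4 percentage points in replicate 1 and 26.7 in replicate 2, against 6.65 ± 5.17 points (mean and SD, n = 19) in lists of other constructs, which ran from -2.04 in ZFP319-HA to 21.7 in DLX1-HA. BHLHB8-HA was higher by 21.4 points (exact permutation two-sided p = 0.00952, the smallest that 210 arrangements allow; adjusted p = 0.0381 over 6 measures). Both BHLHB8-HA lists stood above each of the 19.

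CAGATG and CATATG differed in the same direction. The excess of CAGATG was 16.9 and 11.1 points in the BHLHB8-HA replicates and 2.73 ± 4.66 points in the other lists (n = 19), a difference of 11.3 points (exact permutation p = 0.0190, adjusted p = 0.0381). The excess of CATATG was 6.75 and 3.82 points against -1.38 ± 1.74 (n = 19), a difference of 6.67 points (exact permutation p = 0.0190, adjusted p = 0.0381). This call was lost with all 28 lists (adjusted exact permutation p = 0.0529). In the replicate block, where no measure could pass, its adjusted exact permutation p was 0.15. For both sequences DLX1-HA, with 12.1 and 4.73 points, lay between the BHLHB8-HA replicates. CACGTG was at 0.720 and 0.942 points against 0.899 ± 1.39 (n = 19), and this difference did not pass the test (exact permutation p = 0.781, adjusted p = 0.781). The share of promoter peaks, 17.3% and 16.7%, and the median GC content, 49% and 52.5%, did not pass either (adjusted exact permutation p = 0.674 for each). Their values in the other lists were 12.9% ± 14.0 and 47.7% ± 6.44 (n = 19).

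**Figure D3:**
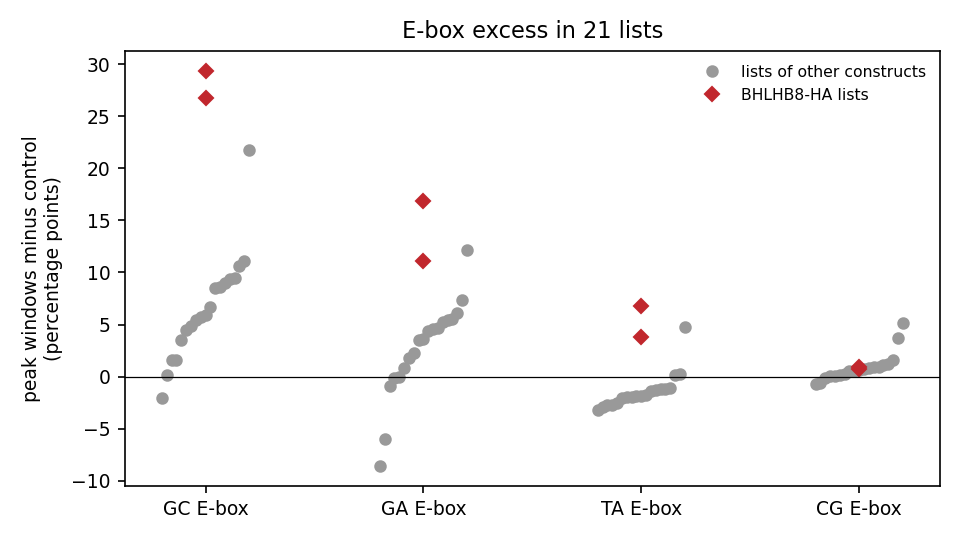
Share of peak windows minus share of control windows with each E-box, in percentage points, for the 21 lists of at least 500 peaks; red diamonds are the BHLHB8-HA replicates and grey circles the lists of other constructs, in rising order. The diamonds for the GC E-box, at 29.4 and 26.7, lie above every grey circle, and those for the CG E-box, at 0.720 and 0.942, lie among them.

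The DLX1-HA list bears on these values. Of its 20124 peaks, 73.5% overlapped BHLHB8-HA replicate 1 and 54.7% overlapped replicate 2. Such shares were not particular to DLX1-HA. They were 81.5% and 55% for BRACHYURY-HA, 77.9% and 75.8% for TOX3-HA and 70.3% and 57.1% for EBF1-HA, but 11.9% and 5.15% for CDX2-HA. CAGCTG was present in 43.5% of the 10313 DLX1-HA peaks at both BHLHB8-HA lists and in 8.83% of the 4632 at neither. Shared BHLHB8-HA peaks of replicate 1 had CAGCTG in 39.4% of windows where DLX1-HA also had a peak and in 43.3% where it had none. Without the DLX1-HA list, left out after the data were seen, the differences were 22.2 points for CAGCTG, 11.8 for CAGATG and 7.01 for CATATG (adjusted exact permutation p = 0.0211 for each). For CAGATG and CATATG, DLX1-HA was the only other list above a BHLHB8-HA replicate. Its removal therefore fixed the top ranks, and with them the smallest possible unadjusted p, in advance. These p-values add no separate evidence. Why the lists share sites was not tested.

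The classes overlapped the sites of other constructs to different degrees. No other construct had a peak at 32.7% of shared peaks in replicate 1 (32.1 to 33.3) and 31.6% in replicate 2 (31.0 to 32.2). The share was 51.9% of the peaks found only in replicate 1 (51.2 to 52.5) and 86.1% of those found only in replicate 2 (85.7 to 86.4). Peaks found only in replicate 1 therefore lay at sites of other constructs more often than those found only in replicate 2. In 17 of the 19 lists of at least 500 peaks the share of the replicate 1 class was the higher.

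SOX2-HA replicate 1 overlapped 28.4% of shared peaks and 28.7% of replicate-only peaks of replicate 1, but 1.58% of the peaks found only in replicate 2. DLX6-HA, like DLX1 a homeodomain factor, overlapped 29.7%, 28.5% and 0.899% of these classes, and DLX1-HA 41.5%, 19.2% and 1.68%. CDX2-HA, a homeodomain factor of the gut, overlapped 5.10% of shared peaks and 7.94% of those of replicate 1 only. Over the 19 lists the median share was 6.06% of peaks found only in replicate 1 and 0.899% of those found only in replicate 2, beside 7.84% of shared peaks.

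The 2 exceptions were TEAD1-HA and the list of OCT4-HA with SOX2-YPet. TEAD1-HA overlapped 10.5% of shared peaks, 1.28% of replicate 1 only and 3.64% of replicate 2 only. The co-expression list overlapped 0.925%, 0.192% and 3.70%, and 27.1% of its own 5146 peaks lay at peaks found only in BHLHB8-HA replicate 2. At those 1396 BHLHB8-HA peaks CAGCTG was present in 20.0% of windows, against 33.9% of the other peaks found only in replicate 2.

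**Figure D4:**
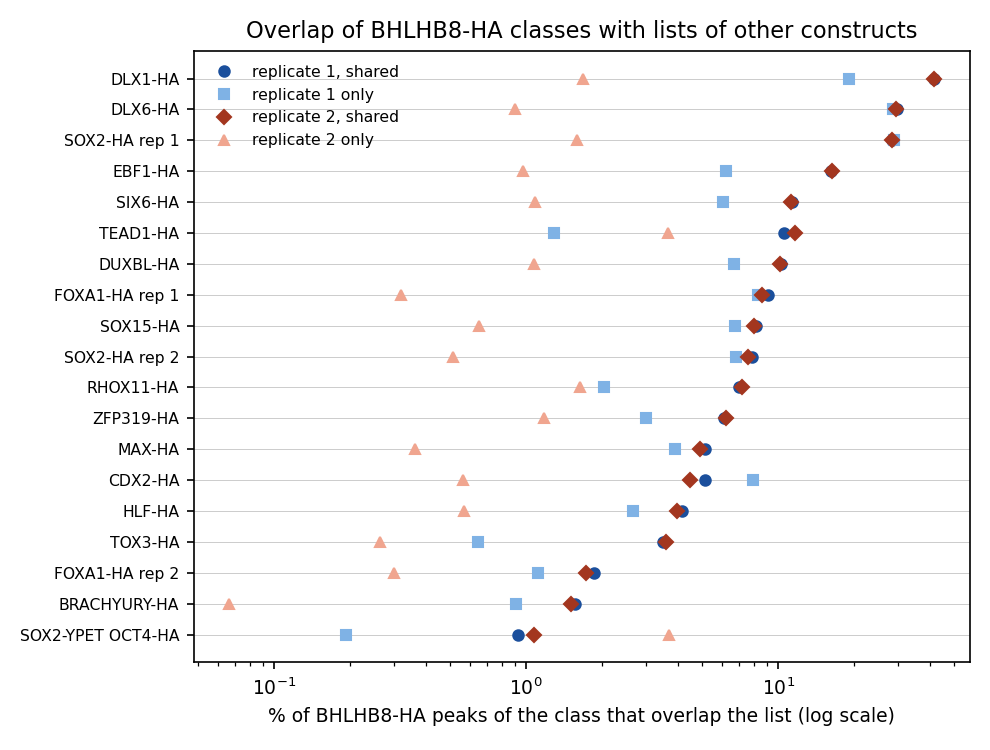
Percent of the BHLHB8-HA peaks of each class, on a log scale, that overlap each of 19 lists of other constructs with at least 500 peaks, ordered by the share of shared peaks in replicate 1. Triangles for replicate 2 only lie left of the squares for replicate 1 only in 17 of 19 lists, with TEAD1-HA and the co-expression list as exceptions.

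The share with CAGCTG fell as the number of other constructs at a site rose. In shared peaks of replicate 1 CAGCTG was present in 53.1% of windows with no other construct, 40.8% with 1 or 2, 32.0% with 3 to 5 and 27.1% with 6 or more. In peaks found only in replicate 1 these shares were 42.5%, 29.1%, 17.1% and 14.4%. AP-1, the site of Fos and Jun dimers written TGASTCA with S for C or G, rose over the same groups from 9.46% to 22.1% in shared peaks and from 8.85% to 28.3% in peaks found only in replicate 1. The median width rose with them too, from 287.5 to 700 bp and from 215 to 439 bp. Over whole classes AP-1 was present in 14.3% and 14.6% of shared and replicate-only windows of replicate 1 and in 12.4% and 4.87% of those of replicate 2, with controls of 2.97% to 3.33%. The peaks found only in replicate 2 thus held AP-1 less often than the other classes.

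BHLHB8-HA peaks were unevenly spread over chromosomes. Chromosome 11 had 34.8 peaks per Mb in replicate 1 and 46.6 in replicate 2, and chromosome 19 had 29.5 and 48.7. Chromosome X had 2.51 and 2.27 per Mb, and chromosome 14, the lowest of the autosomes in both lists, 9.54 and 12.0. Over 2382 bins of 1 Mb the counts of the replicates rose together (Spearman's rho = 0.909, Pearson's r = 0.886), a description over bins that share their gene density and mappable sequence. In bins with at least 20 peaks of replicate 1 the median ratio of replicate 2 to replicate 1 was 1.27, with percentiles 5 and 95 of the 1007 bins at 0.714 and 1.99.

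The 5 bins with the highest ratios, 3.43 to 4.75, were on chromosome 5. In the dense block there from 3 to 11 Mb the ratio was 3.17, with 140 shared peaks, 221 of replicate 1 only and 1013 of replicate 2 only. CAGCTG was present there in 17.6% and 17.8% of the replicate-only windows, against 33.5% and 33.8% elsewhere. At the other end, chromosome 16 from 86 to 87 Mb had 31 peaks of replicate 1 and 2 of replicate 2. Without the chromosome 5 block the shares of peaks found in the other list were 53.4% and 39.7%.

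Clusters were described as runs of peaks with neighbouring midpoints at most 12.5 kb apart. Runs of 5 or more peaks of a list held 21.9% of shared and 19.2% of replicate-only peaks in replicate 1, and 23.1% and 17.1% in replicate 2. The difference between shared and replicate-only peaks depended on the gap. With gaps of 5 kb it was -0.0404 points in replicate 1 and 0.132 in replicate 2, and with 25 kb it was 6.25 and 12.0 points. Shared peaks alone formed 285 such runs, with 1732 peaks or 6.94% of the class, and 9 runs had 10 or more. The run with 17 shared peaks spanned chromosome 5 from 125183670 to 125274139 and had no protein-coding gene. One with 16 lay on chromosome 11 from 117912679 to 117995676 over Pgs1 and Socs3, the latter an inhibitor of cytokine signalling. On chromosome 2 a run of 15 from 27802294 to 27897674 reached into Col5a1, a fibrillar collagen, and a run of 14 from 167537933 to 167607168 held Snai1, a repressor that binds E-boxes and drives the mesenchymal state. A run of 10 on chromosome 11 from 97391613 to 97451209 held Arhgap23 and Socs7, and further runs had the same number.

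Target genes were read from promoter peaks and from peaks in the gene and 10 kb on either side. Of 21853 protein-coding genes, 6131 (28.1%) had a shared peak at a promoter, 1097 (5.02%) had no shared one but a promoter peak found only in replicate 1, and 3346 (15.3%) had no shared one but a promoter peak found only in replicate 2. Among these were 359 genes with promoter peaks of both kinds. A shared peak in the wider span was present for 11323 genes (51.8%). With a reciprocal overlap of 50% the genes with a shared promoter peak numbered 3720. Promoter position and gene size are not matched between lists of genes, so the counts that follow are read beside these shares and not tested. The nearest gene to a peak is not known to be its target.

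Genes linked to MIST1 in secretory cells mostly had shared peaks. Of 16 such genes, 9 (56.2%, against 28.1% of all genes) had one at a promoter and 14 (87.5%, against 51.8%) in the wider span. The list had 4.26 shared peaks per 100 kb against 1.62 over all genes, a value pooled over spans of all lengths. These 14 include Bhlha15, whose peak over its coding exon is described below. High promoter shares were not particular to this list. They were 68% for endoplasmic reticulum genes, 55.6% for helix-loop-helix and Id genes and 54.2% for fibroblast genes, but 11.1% for muscle and 0% for acinar genes. Nor were high values in the wider span. In the same order of lists, the wider-span shares were 84%, 77.8%, 75%, 51.9% and 20%. Shared peaks per 100 kb were 2.83, 2.86, 3.65, 2.93 and 0.582. Copz2, a coat protein of transport vesicles, had 6 shared peaks, 1 of them at a promoter, and 1 peak of replicate 2 only. Rab3d, a GTPase of secretory granules, had 3 shared peaks and none of a single replicate. Xbp1, a regulator of the unfolded protein response, had 2 shared promoter peaks and 1 found only in replicate 1, whose window is printed above.

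The other 6 of the 9 were Ccpg1, Creb3l2, Rap1gap, Nupr1, Cib1 and Rab27b. Creb3l2, a membrane-bound regulator of secretory capacity, had 4 shared peaks, 5 of replicate 1 only and 3 of replicate 2 only. Creb3l1, its relative, had 5 shared peaks and Atp2c2, a calcium pump of the secretory pathway, had 4, none of them at a promoter. Rab26 had 1 peak, found only in replicate 1, and Gjb1, a gap junction protein on chromosome X, had none. Cdkn1a, a cell cycle inhibitor, had its promoter peak in replicate 1 only. Bhlha15 itself had a peak over its coding exon on chromosome 5, from 144191079 to 144191662 in replicate 1 and from 144191084 to 144191665 in replicate 2. The transgene holds the same coding sequence, so reads from it and from the gene cannot be told apart there.

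The general machinery of the endoplasmic reticulum had shared promoter peaks at 17 of 25 genes (68%, against 28.1% of all genes). Another 7 (28%, against 15.3% of all genes) had a promoter peak of replicate 2 only and no shared one. Sec24d, a cargo adaptor of COPII vesicles, had 6 shared peaks in its span with 2 at promoters, and Sec61b, a subunit of the translocon, had 2 at promoters and 1 promoter peak of replicate 1 only. Ern1, a sensor of unfolded protein, and Atf4, a stress-response factor, had 3 shared peaks each, with 1 at a promoter. Hspa5, the chaperone BiP, had no shared peak and 2 found only in replicate 2.

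Pancreatic acinar genes stood at the other end. None of 20 had a shared peak at a promoter, against 28.1% of all genes, and 4 (20%) had one in the wider span, against 51.8%. Among them Cel, a lipase, Cela1, an elastase, and Rbpjl, a transcription factor of acinar cells, had 1 each. Promoter peaks of replicate 2 only were present at 4 of the 20 (20%, against 15.3% of all genes), namely Cela1, Ctrb1, Pnlip and Gata4. Nr5a2, a nuclear receptor of acinar cells, had 7 peaks, all found only in replicate 2.

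Skeletal muscle genes, many regulated through E-boxes by MyoD, had shared promoter peaks at 3 of 27 genes (11.1%, against 28.1% of all genes). These were Mef2a, Myl4 and Mb. Shared peaks in the wider span were present for 14 (51.9%, against 51.8% of all genes). Their density was above that of all genes, at 2.93 per 100 kb against 1.62. Mb, myoglobin, had 6 shared peaks in its span, Tnni1, a troponin, had 5, and Mef2d and Casq2 had 4 each. Myod1, Myog, Myf5 and Myf6, the myogenic helix-loop-helix genes, had no shared peak and 1 peak each found only in replicate 2. Myf5 and Myf6 are neighbours, and the peak counted for both is the same, at the Myf5 promoter.

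Among 27 genes of helix-loop-helix and Id proteins, 15 (55.6%, against 28.1% of all genes) had a shared peak at a promoter. Mitf, a regulator of melanocytes and lysosomes, had 7 shared peaks with 2 at promoters, and Id1 had 5 with 2 at promoters. Tcf4, an E-protein that pairs with tissue-specific factors, had 5 with 3 at promoters, and Twist2 had 5 with none there. Tcf12, another E-protein, had 1 shared promoter peak and 2 found only in replicate 1. Tcf21, Tcf15, Hey1 and Hand2 had no peak in either list.

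Of 24 genes of fibroblast matrix and contraction, 13 (54.2%, against 28.1% of all genes) had a shared promoter peak. A shared peak in the wider span was present for 18 (75%, against 51.8%), at 3.65 per 100 kb against 1.62 over all genes. Col5a1 had 8 shared peaks, and Sparc, a matrix glycoprotein, and S100a4 had 4 each. Fbln2 had 1 shared peak and 8 found only in replicate 1. Over this list peaks of replicate 1 only were at 3.57 per 100 kb against 1.12 over all genes, and peaks of replicate 2 only at 2.22 against 2.03.

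**Figure D5:**
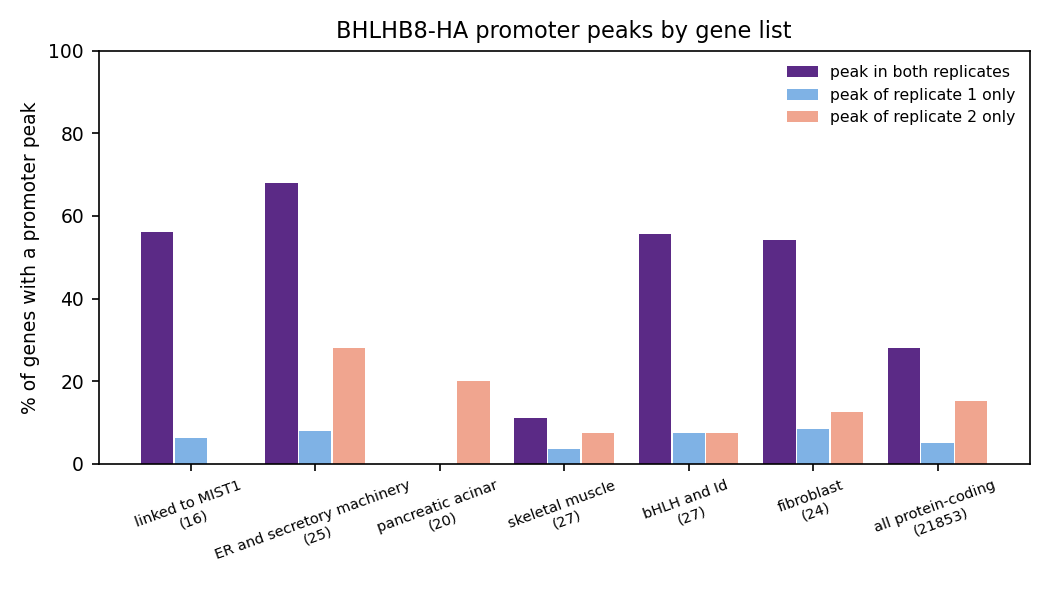
Percent of genes of each list with a promoter peak found in both BHLHB8-HA replicates, or, for genes without one, in replicate 1 only or in replicate 2 only, with the number of genes under each name and all protein-coding genes at the right. Shared promoter peaks were present at 68% of endoplasmic reticulum genes, 0% of pancreatic acinar genes and 28.1% of all genes.

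Over all protein-coding genes the 10 with the most shared peaks had spans of 108 kb and more, against a median of 37.4 kb. They were led by the gene models Gm20388 with 138 and Fgfr2 with 53, in spans of 4455 and 2981 kb. Slc39a11, a zinc transporter, had 26 in 425 kb, Cdk14 had 24, and Gm37240, Sox5, Dst, Sept9, Ahnak and Frmd4a had 18 to 23. Cdk14, on chromosome 5 from 4803391 to 5420312, lies in the dense block described above and had 88 peaks found only in replicate 2.

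Per 100 kb, among genes with at least 5 shared peaks, the 10 highest had spans of 20.4 to 28.9 kb. Socs3 had 25.03 shared peaks per 100 kb and Junb, a member of AP-1, had 24.8, with 6 shared peaks each. Id1 had 23.6, and Hist2h2bb, Hist2h3b, AI837181, Drap1, Fbxl15, Rpl19 and Cuedc2 had 20.8 to 24.5. Neighbouring pairs among these, such as Hist2h2bb with Hist2h3b and Fbxl15 with Cuedc2, share peaks.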

How the data were processed

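Both BHLHB8-HA lists and 26 lists of other constructs were used, grouped and numbered by the labels. Per the study's methods and the submitters' processing notes, the authors aligned paired-end reads to mm10 with STAR 2.5.3a and kept those with a single position, removed duplicates with Picard, called peaks in each sample with MACS2 2.1.1.20160309 and discarded peaks at input peaks and blacklisted regions. The deposited files give peak positions in bp and no score, so peak strength and depth could not enter. The study calls the samples biological replicates, and the labels do not state separate cultures, so p-values measure the spread between these lists, which may be technical.

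Positions were read on GRCm38 with GENCODE vM21. Genes named were those of each list with shared promoter peaks or the most shared peaks, up to 4 per list, the 10 genes with most shared peaks and the 10 with most per 100 kb, and the 5 runs with most shared peaks. Other genes were named with their values in view. The classes and gene lists were chosen with earlier results of these data known. Of the list names, all were found in the annotation.

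Lists were compared by exact permutation, two-sided, with p-values adjusted over 6 measures by the Benjamini-Hochberg method. Intervals are 95% exact (Clopper-Pearson). Overlap and hexamer counting were tested on simulated data. Python 3.11.15, NumPy 2.4.6, SciPy 1.17.1 and Matplotlib 3.10.9 were used. Alternatives covered overlap rules, widths, windows, controls, distances, each replicate left out and a replicate block. Some members of the gene lists are counted but not reported by name here.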

Additional observations from a re-analysis of the deposited data

How the results depend on the processing

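With 1 BHLHB8-HA list left out, the smallest two-sided p is 0.1, so no call could pass. Leaving out each replicate gave ranges of 20.1 to 22.7 points for CAGCTG, 5.21 to 8.14 for CATATG, 8.36 to 14.1 for CAGATG, and -0.178 to 0.0430 for CACGTG. In the replicate block, over the 4 factors with duplicate lists, the smallest p is 0.0625, so no call could pass. It gave 22.2 points for CAGCTG, 6.75 for CATATG, 12.3 for CAGATG, 10.6 for promoter share and 5.00 for GC content (4.11 and 3.04 over the 21 lists), and 0.848 for CACGTG, which turned its direction, as did upstream controls (0.00924) and whole peaks (0.651). With all 28 lists CATATG was at 7.12 points (adjusted exact permutation p = 0.0529) and no longer passed. A reciprocal overlap of 50% moved the mean share found in the other list from 46.2% to 31.0%, the difference in CAGCTG between shared and replicate-only peaks from 6.31 to 10.8 points, that in promoter peaks from 15.7 to 6.80 points, and the genes with a shared promoter peak to 3720. Over whole peaks the CAGCTG difference was 17.02 points. The difference in peaks in runs was 4.35 points, 0.0459 with gaps of 5 kb, where replicate 1 turned to -0.0404, and 9.12 with 25 kb. The cause of these moves was not tested. Of 65 alternatives over 11 results, 44 kept both direction and call or stayed close to the value reported. This count does not measure robustness. In the class values, close meant within the SD of the replicates, which leaving out a replicate always met. Measures that had not passed also could not change their call where no call could pass. Leaving out a replicate in the class values, the DLX1-HA list or the chromosome 5 block was chosen after seeing the data. Depth is unknown, which limits what peaks of a single replicate can show.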
